A study of Mus musculus with 8 samples.

Results

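The genes described here are 35 mouse genes by which endothelial cells, and the endocardium that lines the heart, are recognised. They were chosen by symbol and located by their Ensembl identifiers among the 49315 genes of the deposited count files, and all 35 were found. They comprise 13 surface and junction genes, 8 receptors, the apelin ligand with its receptor, 5 endothelial transcription factors, 3 hemato-endothelial transcription factors, 1 endocardial receptor, and 3 scavenger, lymphatic or venous receptors. All 35 passed the filter on low counts, but Esm1 did so only through the mutant libraries.

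RNA was sequenced from whole hearts dissected at embryonic day 9.5 (E9.5) from 2 genotypes, wild type (WT) and homozygous Tbx20EH1Mut, with 4 libraries of each. Tbx20 is a cardiac T-box transcription factor, and its engrailed homology 1 (EH1) domain binds the corepressors of the Transducin-like enhancer (TLE) family. The Tbx20EH1Mut allele is a germline CRISPR/Cas9 replacement of a neighbouring phenylalanine and serine in that domain by leucine and isoleucine, so every cell of the embryo carries it and no effect can be assigned to endothelial cells alone. Founder males were bred to C57BL/6J and the line was back-crossed. Each library pooled 3 hearts, and the study used mice of both sexes. The genotype is known from the labels, because gene counts do not show the altered codons. The comparison asks how loss of Tbx20-TLE binding changes transcript levels in the heart, here for the lining cells of a tissue that is mostly muscle.

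Endothelial cells are specified when the ETS factor Etv2 and the basic helix-loop-helix factors Tal1 and Lyl1 act in mesoderm that can form both blood and vessels. Erg, Fli1 and the SoxF factors Sox7, Sox17 and Sox18 then hold the endothelial program, with its adhesion molecules Cdh5 and Pecam1, its vascular endothelial growth factor (VEGF) receptors Kdr, Flt1 and Flt4, and its angiopoietin receptor Tek. In the E9.5 heart most such cells are endocardium, which expresses Npr3, while coronary vessels and lymphatics have yet to form. Apln, Esm1 and Robo4 mark sprouting or remodelling vessels, and Lyve1, Stab1 and Stab2 mark lymphatic, sinusoidal and venous endothelium as well as some macrophages.

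The 120 bases upstream of the RefSeq start are shown for 6 members to which the results below return, which are the receptors Flt1, Kdr and Tek and the members Apln, Esm1 and Cldn5 with large differences between genotypes. They are read 5′ to 3′ on the coding strand, from the RefSeq table of GRCm38.p6. Capitals mark GGAAG or its reverse complement CTTCC, a form of the GGAA core bound by ETS factors such as Erg, Fli1 and Etv2.
Flt1 (chr5:147726012-147726131, minus strand): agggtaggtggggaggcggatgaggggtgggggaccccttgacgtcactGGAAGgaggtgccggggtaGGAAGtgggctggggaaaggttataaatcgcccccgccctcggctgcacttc
Kdr (chr5:75978456-75978575, minus strand): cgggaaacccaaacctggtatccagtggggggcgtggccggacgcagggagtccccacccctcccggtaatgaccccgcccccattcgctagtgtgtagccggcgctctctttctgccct
Tek (chr4:94739169-94739288, plus strand): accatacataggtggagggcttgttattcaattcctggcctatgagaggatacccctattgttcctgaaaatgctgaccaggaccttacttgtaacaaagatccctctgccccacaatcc
Apln (chrX:48034854-48034973, minus strand): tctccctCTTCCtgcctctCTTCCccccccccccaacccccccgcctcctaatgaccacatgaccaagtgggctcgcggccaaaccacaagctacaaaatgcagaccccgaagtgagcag
Esm1 (chr13:113209539-113209658, plus strand): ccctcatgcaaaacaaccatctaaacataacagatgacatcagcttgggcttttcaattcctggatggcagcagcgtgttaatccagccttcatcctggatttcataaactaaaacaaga
Cldn5 (chr16:18776727-18776846, plus strand): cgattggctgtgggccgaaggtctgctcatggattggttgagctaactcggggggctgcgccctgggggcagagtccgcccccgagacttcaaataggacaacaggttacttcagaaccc

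Among these windows, Flt1 and Apln each held 2 matches to GGAAG or CTTCC and the other 4 held none. GGAA or TTCC next to other bases was not counted, and the windows of Kdr, Tek and Esm1 hold it. In the 250 bases upstream of the start, GGAAG on either strand was present in 16 of the 20 members matched to a RefSeq window, against 64.1% of all 32851 upstream windows. The members' 25 windows held it in 72% of cases, and the motif was found in 7 of the 9 matched members called higher in mutant hearts and in 9 of the 11 others. AACAAT, a core for SOX factors, was present upstream of Emcn, Tek and Erg, and in 9.42% of all windows. AGATAA, a core for GATA factors, was present upstream of Tal1 and Erg, and in 9.99% of all windows. The T-box motif AGGTGTGA was present upstream of Erg alone among the matched members, and in 1.12% of all windows. Each motif was searched on both strands and by itself, so a base could count toward more than 1 motif.

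Of the 35 genes, 19 were higher in Tbx20EH1Mut hearts, 2 were lower and 14 did not pass the test. A gene was called where the adjusted p of edgeR's quasi-likelihood test, corrected by the Benjamini-Hochberg method over all 17163 genes tested, was at most 0.05. Of all genes tested, 29.3% were called, 14.0% higher and 15.3% lower, so 19 of 35 stands against a background of 14.0%. With upper-quartile scaling, 2859 of all genes were higher and 1997 lower in place of 2406 and 2618, and 21 members were higher and 1 lower. Esm1 could pass the filter on low counts only by being high in mutants, and without it 18 of 34 members were higher, 9 of them by a log2 fold change of at least 1. The median log2 fold change of the members was 0.57 (0.54 without Esm1), and that of all genes tested was 0.0048. In 19 members (18 without Esm1) every mutant library lay above every WT library, and in 2 every mutant library lay below. Of all genes, 14.7% and 15.7% did so. Of the members called higher, 10 rose by a log2 fold change of at least 1, as did 6.67% of all genes, and 18 rose by at least 0.5, as did 12.5% of all genes. Of the members called lower, 1 fell by at least 0.5, as did 12.1% of all genes. The members did not move as a block, since Cdh5, Plvap, Tek, Tie1, Eng, Erg, Fli1 and Cd34 were among those that did not pass. In whole hearts, a change in the number of endothelial cells and a change in the RNA of each cell cannot be told apart.

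**Figure D1:**
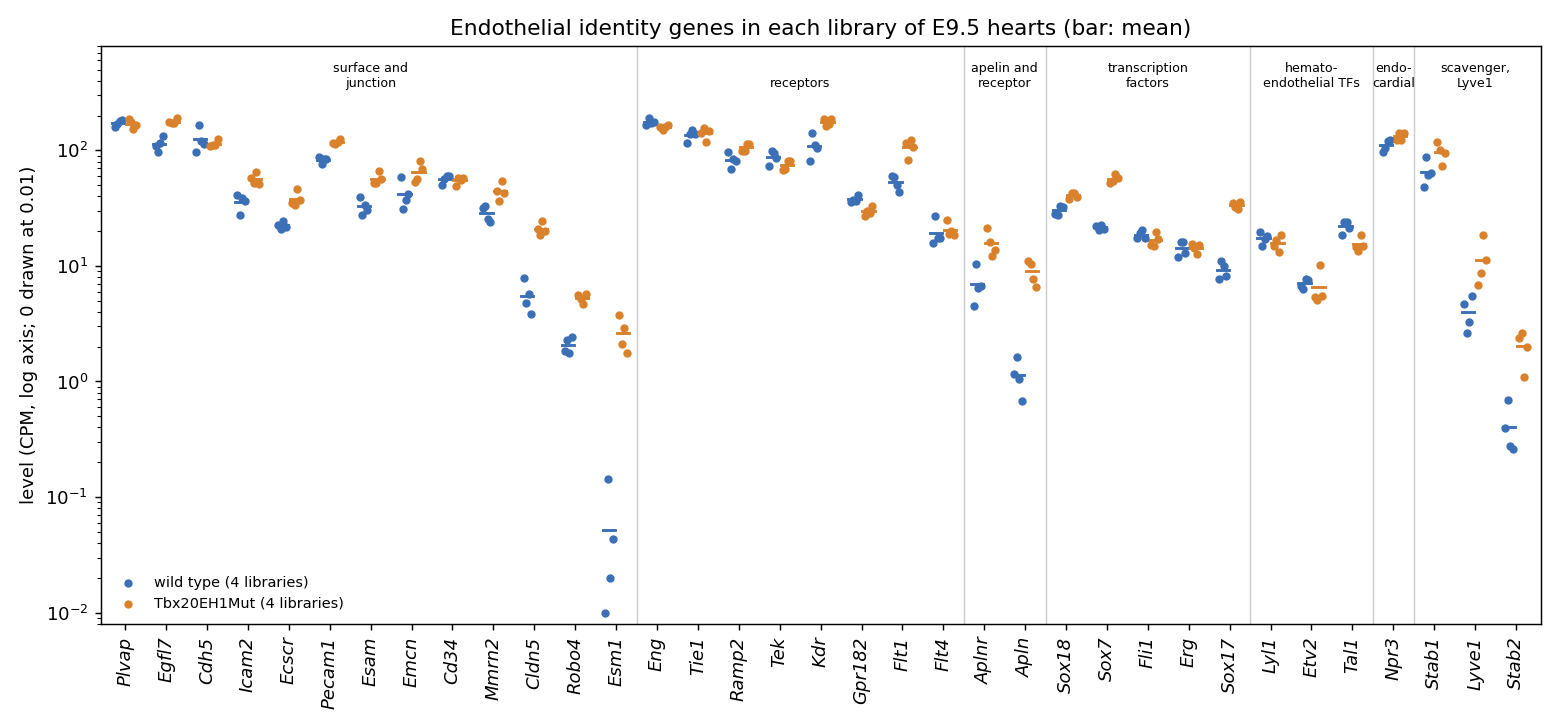
Level of each of the 35 genes in CPM (reads scaled to a common library size, log axis, 0 drawn at 0.01) in the 4 WT (blue) and 4 Tbx20EH1Mut (orange) libraries, with a bar at each genotype mean. Sox7, Sox17, Apln, Cldn5, Robo4 and Esm1 separate fully with the mutant libraries above, while Cdh5, Plvap and Cd34 overlap.

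The libraries held 33359322 to 49523086 counted reads in WT and 36250675 to 38357025 in Tbx20EH1Mut. Levels are given as CPM of a library size scaled by the trimmed mean of M values (TMM), and the p-values measure the spread between these pooled libraries. The first principal component of all genes carried 60.2% of the variance and separated the genotypes, and WT replicate 1 lay nearest to the mutants on it. Without that library, 20 members were called higher and 3 lower, while the counts over all 17661 genes then tested also grew, to 3237 and 3349. Of 13 cardiac muscle markers, all were present in both genotypes and 10 were not called, while 29.3% of all genes were called. Myh6 was lower (log2 fold change -1.26, SE 0.168, edgeR adjusted p = 0.000866), and Myl2 and Myl3 were higher at log2 fold changes of 0.76 and 0.75 (edgeR adjusted p = 0.033 and 0.0451). Myl2 lost its call without WT replicate 2, 3 or 4 or Tbx20EH1Mut replicate 3 or 4, and Myl3 without WT replicate 2, 3 or 4 or Tbx20EH1Mut replicate 2, 3 or 4. Foregut epithelial markers were also present and some were called higher in mutants, and the values are given with the other cell types below.

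Of the pan-endothelial junction molecules, Pecam1 was called higher and Cdh5 was not called. Cdh5 (ENSMUSG00000031871, chr8:104101625-104144511, plus strand) encodes VE-cadherin, the adherens junction protein most often used to define endothelium. Cdh5 stood at 95.9, 167, 121 and 114 CPM in the 4 WT libraries and at 109, 110.4, 111 and 125 in the 4 Tbx20EH1Mut libraries. All mutant libraries lay inside the WT range, which was stretched by WT replicate 2, and no difference passed the test (log2 fold change -0.13, SE 0.160, edgeR adjusted p = 0.574). Without WT replicate 2 the log2 fold change of Cdh5 was 0.06 (edgeR adjusted p = 0.709). With the mean level of the foregut markers, which tended to be higher in mutants, as a covariate it was -0.50 (edgeR adjusted p = 0.0945). Pecam1 (ENSMUSG00000020717, chr11:106654217-106750628, minus strand) encodes CD31, an adhesion molecule of the endothelial cell border. Its levels were 88.0, 76.4, 83.5 and 84.2 CPM in WT and 116, 113, 119 and 125 in mutants. Every mutant library exceeded every WT library, by 1.42-fold on the means (log2 fold change 0.51, SE 0.0941, edgeR adjusted p = 0.00399).

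Cldn5 (ENSMUSG00000041378, chr16:18776847-18778260, plus strand), which encodes the tight junction protein claudin 5, had the largest fitted change of the 13 after Esm1. It measured 7.86, 4.77, 5.74 and 3.82 CPM in WT hearts and 20.8, 18.4, 24.2 and 19.9 in Tbx20EH1Mut hearts. The lowest mutant library was above the highest WT library, and the mean rose 3.76-fold (log2 fold change 1.91, SE 0.216, edgeR adjusted p = 0.000374). Esam (ENSMUSG00000001946, chr9:37528078-37538319, plus strand) encodes an endothelial cell-selective adhesion molecule of tight junctions. WT libraries gave 39.5, 27.7, 33.7 and 30.5 CPM for Esam, and mutant libraries gave 51.8, 51.9, 66.2 and 56.0. The genotypes did not overlap (log2 fold change 0.78, SE 0.137, edgeR adjusted p = 0.0031). Icam2 (ENSMUSG00000001029, chr11:106377656-106388075, minus strand), an intercellular adhesion molecule at endothelial junctions, ran at 41.0, 27.4, 38.5 and 36.3 CPM in WT and 58.2, 52.4, 65.0 and 50.8 in mutants. It too was higher in every mutant library (log2 fold change 0.66, SE 0.143, edgeR adjusted p = 0.00839).

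Emcn (ENSMUSG00000054690, chr3:137341067-137432185, plus strand) encodes endomucin, a sialomucin strongly expressed on endocardium and veins. Emcn values were 58.2, 31.1, 37.2 and 42.1 CPM in WT and 53.5, 56.8, 81.4 and 68.6 in Tbx20EH1Mut. WT replicate 1 lay above the lowest 2 mutant libraries, so the genotypes overlapped, and the gene was called higher by a narrow margin (log2 fold change 0.63, SE 0.201, edgeR adjusted p = 0.0405). That call was lost without WT replicate 2, 3 or 4 or without Tbx20EH1Mut replicate 3 or 4, with an edgeR adjusted p of 0.00631 to 0.11 over the 8 fits that each left out 1 library. Robo4 (ENSMUSG00000032125, chr9:37401897-37415115, plus strand), a roundabout receptor that stabilises vessels, measured 1.82, 2.28, 1.77 and 2.42 CPM in WT and 5.59, 5.18, 4.72 and 5.75 in mutants. All mutant libraries were above all WT libraries, at a low level in both genotypes (log2 fold change 1.35, SE 0.200, edgeR adjusted p = 0.00141).

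Mmrn2 (ENSMUSG00000041445, chr14:34375504-34404287, plus strand) encodes multimerin 2, an endothelial matrix protein that binds Cd93 and Clec14a. The WT libraries held 31.8, 32.95, 25.3 and 24.2 CPM and the mutant libraries 44.9, 36.1, 54.2 and 42.9. Mutant values were all higher, although Tbx20EH1Mut replicate 2 came close to WT replicate 2 (log2 fold change 0.64, SE 0.154, edgeR adjusted p = 0.0131). Ecscr (ENSMUSG00000073599, chr18:35713086-35722356, minus strand), an endothelial surface protein of filopodia, was at 22.5, 20.9, 24.6 and 21.7 CPM in WT and 34.7, 33.9, 46.1 and 37.4 in mutants. The genotypes were separate (log2 fold change 0.76, SE 0.126, edgeR adjusted p = 0.00242). Egfl7 (ENSMUSG00000026921, chr2:26580014-26593120, plus strand) is a secreted endothelial protein whose locus also hosts Mir126a. It reached 109.8, 96.8, 117 and 133 CPM in WT and 176, 171, 172 and 190.2 in Tbx20EH1Mut. Every mutant library was above every WT library (log2 fold change 0.64, SE 0.117, edgeR adjusted p = 0.00391). Egfl7 shares 64 exon bases with Agpat2 on the other strand, and the strand setting of the counting is not given in the sources used here.

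Esm1 (ENSMUSG00000042379, chr13:113209659-113218098, plus strand) encodes endocan, a proteoglycan of sprouting tip cells. Esm1 was close to absent in WT, with 0, 7, 1 and 2 reads in the 4 libraries against 145, 79, 93 and 67 reads in mutants. As CPM these were 0, 0.143, 0.0199 and 0.0436 in WT and 3.76, 2.10, 2.91 and 1.78 in Tbx20EH1Mut. The genotypes did not overlap, and the fitted log2 fold change of 5.51 (SE 0.646, edgeR adjusted p = 0.000447) depends on the count added to the near-empty WT libraries. The remaining 2 surface genes gave no call. Cd34, a sialomucin of endothelial and blood progenitors, ranged over 50.2 to 59.9 CPM in WT and 49.1 to 57.5 in mutants (log2 fold change -0.04, SE 0.103, edgeR adjusted p = 0.772). Plvap, which forms the diaphragms of endothelial caveolae and fenestrae, ranged over 158 to 181 and 153 to 186 CPM (log2 fold change -0.02, SE 0.105, edgeR adjusted p = 0.924). In all, 10 of the 13 surface and junction genes were called higher, against 14.0% of all genes, and 0 lower, against 15.3% (9 of 12 and 0 without Esm1), 0 also at an unadjusted edgeR p of 0.05 or by DESeq2 or limma-voom, and their summed level was 705 to 733 CPM in WT and 884 to 955 in mutants.

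**Figure D2:**
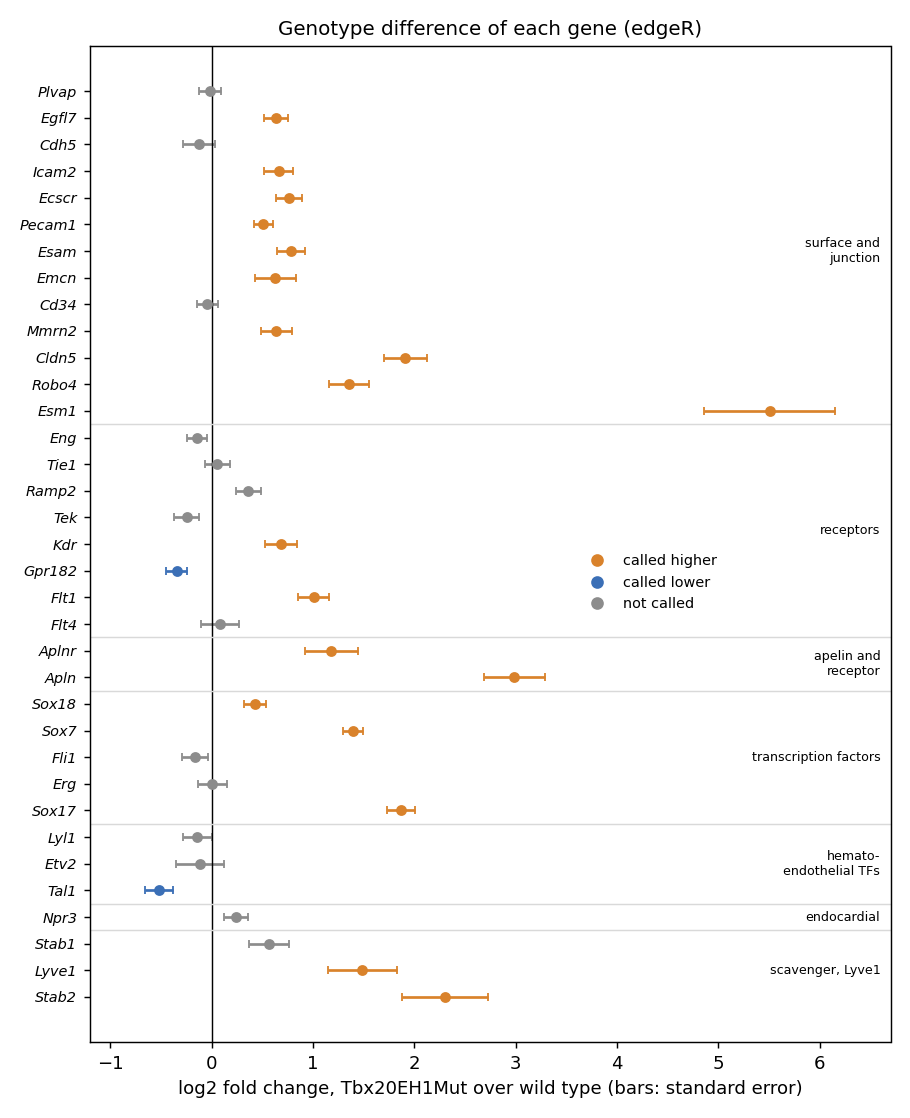
Log2 fold change of each gene in Tbx20EH1Mut over WT hearts with its standard error, grouped by role (orange called higher, blue called lower, grey not called). The values run from -0.52 for Tal1 to 5.51 for Esm1, and 19 genes are called higher.

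Of the 8 receptors 2 were called higher and 1 lower, against 14.0% and 15.3% of all genes. Among them 2 of the 3 VEGF receptors were higher, while the angiopoietin receptor Tek and its relative Tie1 gave no call. Kdr (ENSMUSG00000062960, chr5:75932827-75978458, minus strand) encodes VEGFR2, the main signalling receptor for VEGF-A. Kdr was at 80.1, 142, 110.2 and 105 CPM in WT and 185, 162, 169 and 186 in Tbx20EH1Mut. The highest WT library, replicate 2, stayed below the lowest mutant library, and the mean rose 1.61-fold (log2 fold change 0.68, SE 0.161, edgeR adjusted p = 0.0119). With the mean level of the foregut markers as a covariate, the log2 fold change of Kdr was 0.31 and the edgeR adjusted p 0.302. Flt1 (ENSMUSG00000029648, chr5:147561604-147726011, minus strand) encodes VEGFR1, which binds VEGF-A tightly and acts largely as a decoy. Its level was 60.3, 58.9, 49.9 and 43.7 CPM in WT and 115, 82.5, 123 and 107 in mutants. Every mutant library was higher (log2 fold change 1.01, SE 0.153, edgeR adjusted p = 0.00159). Flt4, the VEGF-C receptor VEGFR3, overlapped between genotypes at 15.7 to 27.0 CPM in WT and 18.4 to 25.2 in mutants (log2 fold change 0.09, SE 0.186, edgeR adjusted p = 0.753).

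Tek (ENSMUSG00000006386, chr4:94739289-94874976, plus strand) encodes Tie2, the receptor for angiopoietins. Tek measured 73.4, 99.6, 94.2 and 86.4 CPM in WT hearts and 66.9, 69.2, 81.5 and 80.4 in Tbx20EH1Mut hearts. The means were 88.4 ± 11.4 and 74.5 ± 7.49 CPM (SD, n = 4), WT replicate 1 fell among the mutants, and the difference did not pass the test (log2 fold change -0.25, SE 0.124, edgeR adjusted p = 0.155). Without WT replicate 1 it did, at a log2 fold change of -0.33 and an edgeR adjusted p of 0.049, against 0.049 to 0.317 over all 8 fits that left out 1 library. Tie1, the orphan partner of Tie2, gave 116 to 149.9 CPM in WT and 118 to 154 in mutants (log2 fold change 0.05, SE 0.123, edgeR adjusted p = 0.763). Neither receptor of the Tie family was therefore called with all 8 libraries.

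Eng encodes endoglin, a coreceptor for TGF-β family ligands on endothelium. Eng lay at 166 to 190.0 CPM in WT and 151 to 164 in mutants, without overlap, yet the shift was small and not called (log2 fold change -0.15, SE 0.0954, edgeR adjusted p = 0.268). Ramp2, the partner that turns Calcrl into an adrenomedullin receptor, lay at 69.1 to 97.1 and 97.8 to 114 CPM, also without overlap, with mutants above (log2 fold change 0.36, SE 0.124, edgeR adjusted p = 0.0514). Without WT replicate 1 its edgeR adjusted p was 0.0178, and over the 9 other processing settings, DESeq2 and limma-voom included, the adjusted p ran from 0.00656 to 0.0856. Ramp2 shares 33.4% of its exon bases with Vps25 on the same strand, so part of either count may belong to the other gene. Eng and Gpr182 share 61 and 60 exon bases with Fpgs and Zbtb39 on the other strand. Gpr182, an endothelial receptor that takes up chemokines, was lower in every mutant library, at 35.9 to 41.0 CPM in WT and 27.2 to 32.997 in mutants (log2 fold change -0.35, SE 0.104, edgeR adjusted p = 0.0324). That call was lost without WT replicate 3 or 4 and without Tbx20EH1Mut replicate 1, 2 or 3, where the edgeR adjusted p over the 8 fits ran from 0.0281 to 0.104, and it was also lost with upper-quartile scaling, with no filter on low counts and with the foregut covariate (edgeR adjusted p = 0.0887, 0.0663 and 0.125, with a log2 fold change of -0.37 under the covariate).

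Apelin and its receptor were both called higher. Apln (ENSMUSG00000037010, chrX:48025146-48034853, minus strand) encodes the peptide ligand apelin, released by sprouting endothelial cells. Apln stood at 1.15, 1.63, 1.06 and 0.676 CPM in WT and 11.1, 10.5, 7.75 and 6.57 in Tbx20EH1Mut. The lowest mutant library was several times the highest WT library, and the mean rose 7.96-fold (log2 fold change 2.99, SE 0.300, edgeR adjusted p = 0.000191). Aplnr (ENSMUSG00000044338, chr2:85136225-85139923, plus strand) encodes the apelin receptor, present on venous and sinus venosus endothelium. Its levels were 4.49, 10.4, 6.43 and 6.66 CPM in WT and 21.4, 16.1, 12.2 and 13.9 in mutants. WT replicate 2 and Tbx20EH1Mut replicate 3 came nearest to each other but did not overlap (log2 fold change 1.18, SE 0.262, edgeR adjusted p = 0.00947). With the foregut markers as a covariate the log2 fold change of Aplnr was 0.25 and the edgeR adjusted p 0.515.

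The SoxF factors rose while the ETS factors among the members did not pass the test. Sox7 (ENSMUSG00000063060, chr14:63943674-63950732, plus strand), a SoxF factor of early endothelium, measured 22.1, 20.5, 22.7 and 21.1 CPM in WT and 52.2, 54.6, 62.7 and 57.6 in Tbx20EH1Mut. WT values were tightly grouped and the mutants lay far above them, at 2.63-fold on the means (log2 fold change 1.40, SE 0.102, edgeR adjusted p = 3.3e-05). Sox17 (ENSMUSG00000025902, chr1:4490931-4497354, minus strand), the SoxF factor of arterial endothelium and also a factor of definitive endoderm, was at 7.71, 10.98, 9.98 and 8.12 CPM in WT and 34.99, 32.6, 31.0 and 35.9 in mutants. The mean rose 3.66-fold with no overlap (log2 fold change 1.87, SE 0.141, edgeR adjusted p = 4.11e-05). Sox18, the third SoxF gene, rose less, from 30.3 ± 2.88 to 40.8 ± 2.67 CPM (SD, n = 4), again with no overlap (log2 fold change 0.43, SE 0.108, edgeR adjusted p = 0.0159). Erg ranged over 11.9 to 16.3 CPM in WT and 12.8 to 15.5 in mutants (log2 fold change 0.01, SE 0.144, edgeR adjusted p = 0.98). Fli1 ranged over 17.4 to 20.4 and 14.9 to 19.7 CPM (log2 fold change -0.16, SE 0.130, edgeR adjusted p = 0.357). Both ETS factors overlapped between genotypes.

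Of the 3 hemato-endothelial factors 1 was called lower and 0 higher by edgeR, DESeq2 or limma-voom, with 0 higher also at an unadjusted edgeR p of 0.05. Since 14.0% of all genes were called higher and 15.3% lower, a count over 3 genes shows nothing about the group. Etv2 (ENSMUSG00000006311, chr7:30633616-30635852, minus strand), the ETS factor that starts endothelial specification, measured 6.74, 6.25, 7.71 and 7.48 CPM in WT and 5.41, 5.10, 10.1 and 5.46 in Tbx20EH1Mut. Of the mutant libraries, 3 lay below all WT libraries and Tbx20EH1Mut replicate 3 lay above them all, so no difference was called (log2 fold change -0.11, SE 0.237, edgeR adjusted p = 0.746). Tal1 (ENSMUSG00000028717, chr4:115056426-115071755, plus strand) is required for blood formation and for endocardium. It gave 18.4, 24.1, 23.9 and 21.5 CPM in WT and 14.6, 13.5, 18.4 and 14.9 in mutants. Tbx20EH1Mut replicate 3 reached the lowest WT library, and Tal1 was called lower (log2 fold change -0.52, SE 0.141, edgeR adjusted p = 0.0221). The call was lost without WT replicate 3 or 4 and without Tbx20EH1Mut replicate 1, 2 or 4, with an edgeR adjusted p of 0.00969 to 0.0693 over the 8 fits, and it was 0.181 with the foregut markers as a covariate, at a log2 fold change of -0.41. Lyl1, the close relative of Tal1, ranged over 15.01 to 19.5 CPM in WT and 13.2 to 18.6 in mutants (log2 fold change -0.14, SE 0.143, edgeR adjusted p = 0.472).

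Npr3 (ENSMUSG00000022206, chr15:11839896-11905674, minus strand) encodes the natriuretic peptide clearance receptor and marks endocardium. Npr3 was at 97.0, 105, 121 and 124 CPM in WT and 124, 141, 122 and 141 in Tbx20EH1Mut. The genotypes overlapped, since WT replicate 4 exceeded Tbx20EH1Mut replicate 3, and no difference was called (log2 fold change 0.24, SE 0.115, edgeR adjusted p = 0.137).

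The scavenger, lymphatic and venous receptors were low in WT, apart from Stab1. Stab2 (ENSMUSG00000035459, chr10:86841203-87007942, minus strand), a hyaluronan scavenger receptor of sinusoidal endothelium, measured 0.395, 0.692, 0.279 and 0.262 CPM in WT and 2.38, 2.63, 1.09 and 1.99 in Tbx20EH1Mut. All mutant libraries were above all WT libraries (log2 fold change 2.30, SE 0.424, edgeR adjusted p = 0.00392), and with the foregut markers as a covariate its log2 fold change was 0.92 and the edgeR adjusted p 0.233. Lyve1 (ENSMUSG00000030787, chr7:110850607-110863239, minus strand) encodes a hyaluronan receptor of lymphatic and some venous and endocardial cells, and of some macrophages. Its levels were 4.67, 2.65, 3.27 and 5.52 CPM in WT and 6.84, 8.71, 18.5 and 11.2 in mutants. Mutant values were all higher but spread widely, with replicate 3 the highest (log2 fold change 1.49, SE 0.336, edgeR adjusted p = 0.0101). Stab1 ranged over 47.8 to 87.9 CPM in WT and 73.0 to 118 in mutants and narrowly missed the threshold (log2 fold change 0.57, SE 0.197, edgeR adjusted p = 0.0525). It shares 109 exon bases with Nt5dc2 on the other strand, which had 67554 counts in all libraries against 26105 for Stab1. It passed without WT replicate 2 (edgeR adjusted p = 0.0132) and without Tbx20EH1Mut replicate 3 (edgeR adjusted p = 0.0235), and in 5 of the 9 other processing settings, with a lowest adjusted p of 0.0245. With the foregut markers as a covariate the direction of Stab1 turned, to a log2 fold change of -0.21 (edgeR adjusted p = 0.392).

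Of 4 further markers of lymphatic endothelium 3 were tested, and 0 were called by edgeR, DESeq2 or limma-voom or passed an unadjusted edgeR p of 0.05. With 29.3% of all genes called, a count over so few genes shows nothing about the group. Prox1, the factor that specifies lymphatic identity but is also expressed in cardiac muscle, was at 48.4 ± 7.23 CPM in WT and 45.0 ± 1.17 in mutants (log2 fold change -0.11, SE 0.117, edgeR adjusted p = 0.512). Pdpn, podoplanin, was at 16.4 ± 1.18 and 14.7 ± 0.925 CPM (log2 fold change -0.15, SE 0.116, edgeR adjusted p = 0.34). Reln, the secreted protein reelin, was at 5.21 ± 2.97 and 7.76 ± 5.56 CPM (log2 fold change 0.57, SE 0.534, edgeR adjusted p = 0.435), and the lymphatic chemokine Ccl21a had 0 counts in all 8 libraries.

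Per kilobase of exon, the members covered more than 3 orders of magnitude in WT hearts. As CPM per kilobase, the scale on which genes can be compared, Plvap was the highest at 86.5 ± 5.35 (SD, n = 4), followed by Eng at 43.4 ± 2.58, Egfl7 at 31.9 ± 4.20, Cdh5 at 29.6 ± 7.21 and Tie1 at 27.5 ± 2.89. The lowest were Robo4 at 0.391 ± 0.0615, Apln at 0.358 ± 0.125, Stab2 at 0.04999 ± 0.0245 and Esm1 at 0.0246 ± 0.0302. Of the 34 neighbouring pairs in this order, 25 differed by no more than 1 SD, so the order is loose in much of the list. This includes the neighbours from Egfl7 to Ramp2, Robo4 with Apln, and Stab2 with Esm1. The 9 gaps beyond 1 SD lay below Plvap, Eng, Ramp2, Sox18, Npr3, Tal1, Cldn5, Lyve1 and Apln. In Tbx20EH1Mut hearts Plvap kept the first place at 85.6 ± 7.11 CPM per kilobase. Cldn5 went from place 27 to 16 and Sox7 from 21 to 14, while Tek went from 8 to 15 and Cdh5 from 4 to 7.

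Each member was also set against Cdh5 within the same library, as the ratio of CPM per kilobase. Of the other 34 members, 18 had a higher ratio in every mutant library than in any WT library, none had a lower one throughout, and 16 overlapped. The 18 include Esm1, which could pass the filter on low counts only by being high in mutants. Over all genes tested, 11.5% were higher and 9.23% lower without overlap on the same ratio. The ratio of Kdr to Cdh5 was 0.410 ± 0.0200 (SD, n = 4) in WT and 0.718 ± 0.0466 in Tbx20EH1Mut. The ratio of Sox7 to Cdh5 was 0.232 ± 0.0567 in WT and 0.637 ± 0.0585 in mutants, and that of Cldn5 was 0.142 ± 0.0716 and 0.546 ± 0.0796. Tek and Plvap kept overlapping ratios, at 0.647 ± 0.0772 and 0.584 ± 0.0493 for Tek and at 3.04 ± 0.618 and 3.17 ± 0.371 for Plvap. Of the 19 members separated upward by CPM, 16 stayed so by the ratio and Icam2, Mmrn2 and Ramp2 did not, whereas Npr3 and Stab1 separated only by the ratio. A ratio of this kind shows that members moved unequally and does not show which of the pair moved.

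**Figure D3:**
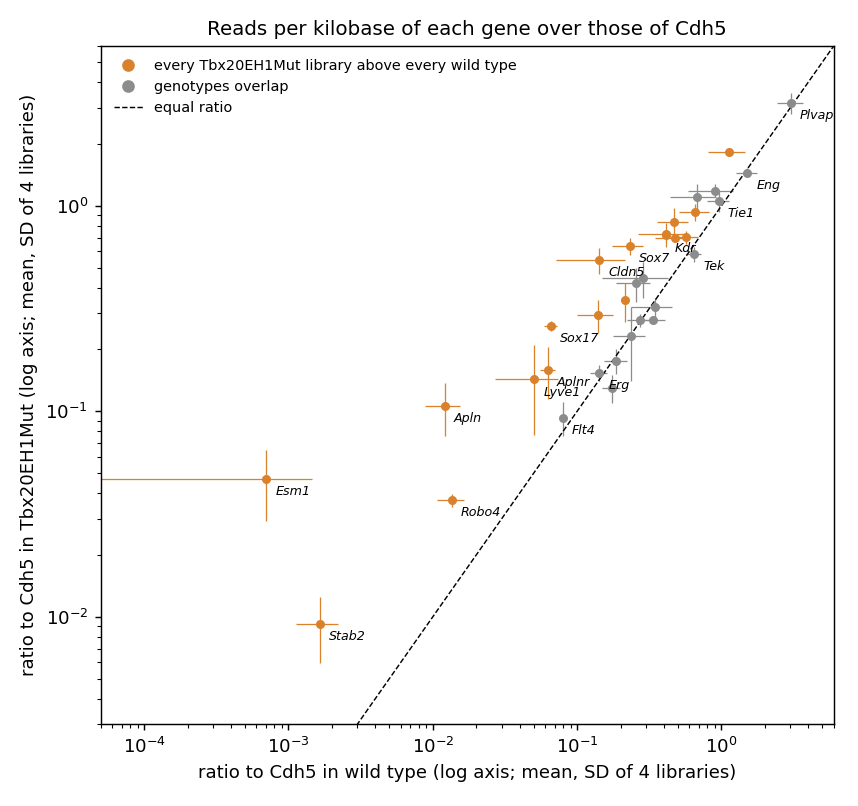
Ratio of each member to Cdh5 in WT (horizontal, log axis) and Tbx20EH1Mut (vertical, log axis) hearts, as mean and SD of 4 libraries, with the dashed line at equal ratios. The 18 orange genes, from Esm1 and Stab2 at the lower left to Egfl7 at the upper right, had a higher ratio in every mutant library than in any WT library, and the WT error bar of Esm1, which reaches below 0, is clipped at the axis.

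The ligands and partners of these receptors did not move in 1 direction. Of 19 such genes 18 were tested, and 5 were called higher and 5 lower, against 14.0% and 15.3% of all genes. Vegfa (ENSMUSG00000023951, chr17:46016993-46032369, minus strand), the ligand of Kdr and Flt1, was at 123, 125, 124 and 140.0 CPM in WT and 376, 373, 235 and 373 in Tbx20EH1Mut. Every mutant library was above every WT library, with replicate 3 the lowest mutant (log2 fold change 1.40, SE 0.160, edgeR adjusted p = 0.000378). Angpt1 (ENSMUSG00000022309, chr15:42424727-42676977, minus strand), the activating ligand of Tek made by myocardium, was at 84.5, 70.5, 89.5 and 84.4 CPM in WT and 21.2, 27.8, 28.8 and 26.0 in mutants. It was lower in all mutant libraries (log2 fold change -1.66, SE 0.129, edgeR adjusted p = 4.61e-05). Vegfa and Angpt1 thus differed in opposite directions.

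Adm, the peptide ligand of the Ramp2 and Calcrl complex, was at 16.2 ± 3.68 CPM in WT (SD, n = 4) and 54.9 ± 8.17 in mutants (log2 fold change 1.76, SE 0.180, edgeR adjusted p = 0.000217). Apela, the second ligand of the apelin receptor, was at 3.89 ± 2.72 and 12.4 ± 0.987 CPM (log2 fold change 1.68, SE 0.395, edgeR adjusted p = 0.0118). Nppa, a natriuretic peptide of working myocardium that is cleared by Npr3, was at 456 ± 113 and 143 ± 22.7 CPM (log2 fold change -1.67, SE 0.192, edgeR adjusted p = 0.000394), and 61.5% of its exon bases overlap Gm13054 on the other strand. The other called genes of this list, named here because they were called, were Vegfc and Angpt2, both higher at log2 fold changes of 0.94 and 0.92 (edgeR adjusted p = 0.00265 and 0.00405), and Nrp1, Ptprb and Gdf2, lower at -0.64, -0.79 and -1.81 (edgeR adjusted p = 0.00956, 0.0169 and 0.0218). Vegfc is the ligand of Flt4, Angpt2 a second ligand of Tek, Nrp1 a coreceptor of Kdr, Ptprb the phosphatase that acts on Tek, and Gdf2 a ligand that signals with Eng. Gdf2 was under 1 CPM on average in both genotypes, and its call was lost without WT replicate 2, 3 or 4 or Tbx20EH1Mut replicate 4. With the foregut markers as a covariate, Angpt2 and Apela no longer passed, at a log2 fold change of 0.63 for Angpt2 and of 1.78 for Apela, whose fold was thus no smaller (edgeR adjusted p = 0.0819 and 0.0675). Under the covariate Nppb and Calcrl passed instead, at log2 fold changes of 1.55 and 0.60 (edgeR adjusted p = 0.00599 and 0.00908).

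**Figure D4:**
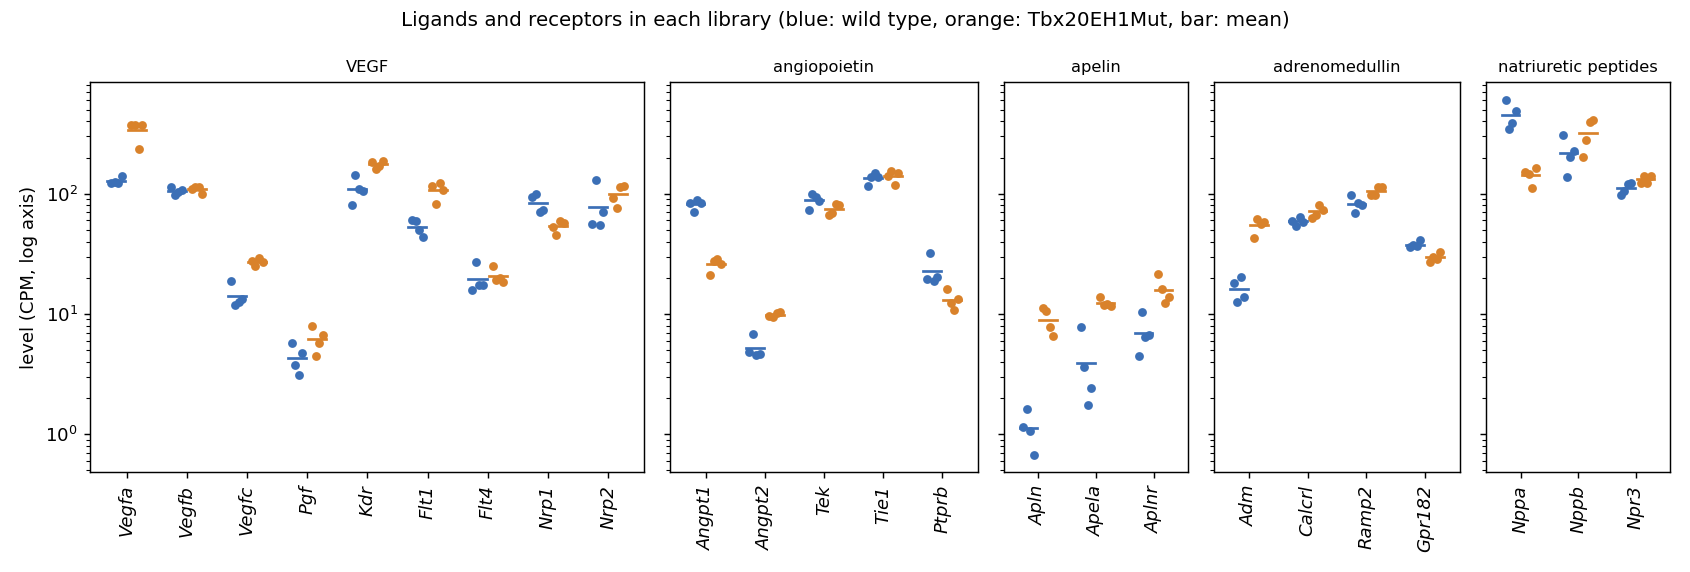
Level in CPM (log axis) of ligands and their receptors in each library, blue for WT and orange for Tbx20EH1Mut, with bars at the means. Vegfa, Kdr, Flt1, Apln and Aplnr are higher in every mutant library, Angpt1 is lower in every one, and the genotypes overlap for Tek.

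Among 14 other transcription factors of endothelium, 6 were called higher and 0 lower by edgeR, against 14.0% and 15.3% of all genes, with 0 lower by DESeq2 or limma-voom and 1, Nfatc1, lower at an unadjusted edgeR p of at most 0.05. The median log2 fold change was 0.24. The 6, named here because they were called, were Hhex, Foxc1, Foxc2, Foxo1, Elk3 and Ets1. The forkhead factors Foxc1 and Foxc2, which act upstream of arterial and lymphatic genes, rose by log2 fold changes of 0.88 and 0.83 (SE 0.149 and 0.129, edgeR adjusted p = 0.0028 and 0.0018). Hhex, a homeobox factor of endothelium and of foregut endoderm, rose by 0.91 (SE 0.183, edgeR adjusted p = 0.00606). Ets1, Elk3 and Foxo1 rose by 0.31, 0.44 and 0.50 (edgeR adjusted p = 0.0293, 0.0143 and 0.0187), and each lost its call without WT replicate 3 or 4. Ets1 also lost it without Tbx20EH1Mut replicate 1, 2 or 4, with scaling by library size alone and with no filter on low counts, and Foxo1 without Tbx20EH1Mut replicate 4. With the foregut markers as a covariate, Hhex, Foxc1 and Ets1 no longer passed (edgeR adjusted p = 0.236, 0.129 and 0.128). The log2 fold changes of Hhex and Foxc1 were then 0.46 and 0.45, while that of Ets1 was 0.31 and so no smaller. The flow-responsive factor Klf2 was at 55.2 ± 7.20 CPM in WT and 44.0 ± 15.2 in mutants and gave no call (log2 fold change -0.33, SE 0.227, edgeR adjusted p = 0.292).

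Among 20 other genes known for endothelial expression, 5 were called higher and 2 lower, against 14.0% and 15.3% of all genes, and the median log2 fold change was -0.08. Myct1, an endothelial target of ETS factors, was at 2.58 ± 0.278 CPM in WT and 11.8 ± 3.04 in Tbx20EH1Mut (log2 fold change 2.19, SE 0.213, edgeR adjusted p = 0.000172). Clec14a, an endothelial lectin that binds Mmrn2, was at 14.7 ± 3.38 and 41.1 ± 8.71 CPM (log2 fold change 1.48, SE 0.198, edgeR adjusted p = 0.000866). Ushbp1 was at 7.004 ± 0.522 and 14.0 ± 3.46 CPM (log2 fold change 1.0005, SE 0.198, edgeR adjusted p = 0.00548). The other called genes, named because they were called, were Adgrl4 and Rhoj, higher at 0.86 and 0.41 on the log2 scale (edgeR adjusted p = 0.00466 and 0.0452), and Nos3 and S1pr1, lower at -0.52 and -0.67 (edgeR adjusted p = 0.0127 and 0.00847). Nos3 encodes endothelial nitric oxide synthase and S1pr1 a sphingosine-1-phosphate receptor, and both were lower in every mutant library. With the foregut markers as a covariate, Ushbp1, Nos3 and S1pr1 no longer passed, at log2 fold changes of 0.56, -0.42 and -0.35 (edgeR adjusted p = 0.228, 0.122 and 0.236). Rhoj lost its call without WT replicate 2, 3 or 4 or without Tbx20EH1Mut replicate 2, 3 or 4, and with scaling by library size alone or no filter on low counts.

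Markers of other cell types in the dissected hearts were summed per library. Cardiac muscle markers summed to 36056 to 43177 CPM in WT and 34555 to 50121 in mutants, and mural cell markers to 55.7 to 103 and 65.3 to 107, with 1 of 4, Rgs5, called higher (log2 fold change 0.93, SE 0.245, edgeR adjusted p = 0.0195), a call lost without WT replicate 3 or 4 or Tbx20EH1Mut replicate 1 or 4 and with the foregut covariate (log2 fold change 0.27, edgeR adjusted p = 0.557). Epicardial markers summed to 54.1 to 174 and 117 to 159.6 CPM, with 1 of 5, Wt1, called higher. Megakaryocyte markers summed to 21.4 to 24.7 and 15.2 to 27.7 CPM, and neural crest markers to 1.22 to 3.18 and 0.531 to 8.18. These sums overlapped between genotypes. Of all genes, 14.0% were called higher, so 1 call among 4 or 5 markers shows nothing about those cell types.

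Erythroid, macrophage and foregut sums did not overlap. Erythroid markers summed to 1864 to 4957 CPM in WT and 359.8 to 1108 in Tbx20EH1Mut. Of the 9, 8 were called lower, against 15.3% of all genes, beside the lower Tal1, a factor that red cells also express. Macrophage markers summed to 12.02 to 18.4 and 6.16 to 9.36 CPM. Of 10, only Csf1r, Mrc1 and Lyz2 passed the filter, Lyz2 was called lower, and Ptprc, Adgre1 and C1qa were at or near 0 in both genotypes. Without Lyz2 the sum was 4.78 to 5.74 CPM in WT and 4.61 to 6.63 in mutants, which overlapped. Csf1r, the receptor that defines the lineage, was at 1.48 ± 0.262 CPM in WT and 2.38 ± 0.132 in mutants (log2 fold change 0.69, SE 0.235, edgeR adjusted p = 0.0501), although it shares 17.8% of its exon bases with Hmgxb3 on the other strand, which had 6603 counts in all libraries against 609 for Csf1r. Mrc1 was at 2.96 ± 0.337 and 3.04 ± 0.943 CPM (log2 fold change 0.04, SE 0.256, edgeR adjusted p = 0.923). Lyve1, Stab1 and Stab2 are also expressed by some macrophages, and the part of macrophages in their values was not tested. Foregut epithelial markers summed to 189.7 to 288 CPM in WT and 653 to 877 in mutants, most of it from Krt8 and Krt18. Of the 9, 5 were called higher, against 14.0% of all genes. Of the 5, Krt8 and Krt18 kept their calls whichever library was left out. Epcam lost its call without WT replicate 3 or 4 or Tbx20EH1Mut replicate 1, 2 or 4, Foxa2 without WT replicate 1, 3 or 4 or Tbx20EH1Mut replicate 1, 2 or 4, and Shh without WT replicate 4. Without those 2 keratins the sum was 1.12 to 54.9 and 30.6 to 191 CPM, which overlapped. In WT, Krt8 ran from 131 to 155 CPM and Krt18 from 57.2 to 78.1, while Epcam ran from 0.657 to 15.3. Which cells gave the keratin reads was not tested. Hepatic markers summed to 0.8292 to 8.80 and 2.52 to 141 CPM, which overlapped. Of 4, 1 was called higher, Apoa1 (log2 fold change 2.94, SE 0.782, edgeR adjusted p = 0.0199), against 14.0% of all genes. That call was lost without WT replicate 3 or 4 or Tbx20EH1Mut replicate 2. With the mean log2 level of the 9 foregut markers as a covariate, Sox7, Sox17, Apln, Cldn5, Flt1, Robo4 and Pecam1 kept their calls and Kdr, Aplnr, Stab2, Gpr182 and Tal1 did not, while Ramp2 passed (log2 fold change 0.74, edgeR adjusted p = 0.00656). Emcn, Icam2, Esam and Lyve1 also kept their calls. Their log2 fold changes were then larger, at 1.32, 1.14, 1.25 and 2.53, while those of Kdr, Aplnr and Stab2 were smaller. The foregut sum was itself higher in every mutant library, so the fit with the covariate cannot fully separate foregut level from genotype. In that fit the calls over all genes went from 2406 to 3187 higher and from 2618 to 3500 lower. The part of erythroid cells in these results was not tested.

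**Figure D5:**
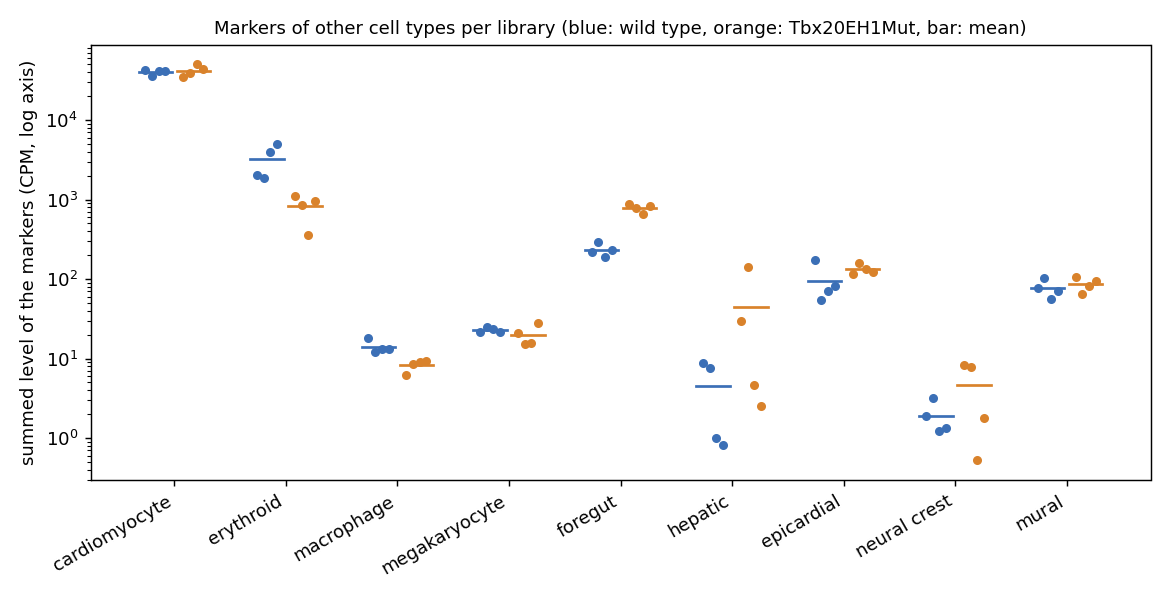
Summed level in CPM (log axis) of the markers of each other cell type in each library, blue for WT and orange for Tbx20EH1Mut, with bars at the means. Erythroid and macrophage sums are lower and the foregut sum is higher in every mutant library, the macrophage sum through Lyz2 and the foregut sum through Krt8 and Krt18, while the cardiomyocyte, mural and epicardial sums overlap.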

How the data were processed

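RNA-seq of E9.5 hearts from 4 wild-type and 4 Tbx20EH1Mut pools was used. The authors deposited raw read counts per Ensembl gene, 1 file per library. Per the submitters' processing notes, reads were trimmed with Trimmomatic 0.36 and aligned with STAR 2.5.2b to GRCm38; the counting tool and strand setting are not given in the sources used here. Genotypes were taken from the labels. Genes were filtered with filterByExpr, scaled by TMM and tested with edgeR 4.0.16 (R 4.3.3) by the quasi-likelihood F-test with genotype as the only term, and p-values were adjusted by Benjamini-Hochberg over 17163 genes. The SE is the absolute log2 fold change divided by the square root of F. CPM uses the TMM-scaled library size, and CPM per kilobase also divides by the exon length deposited with the counts. Coordinates also came with the counts, and symbols were assigned by Ensembl identifier. Of the 48970 genes also in GENCODE M21, 91.43% had the same start and end there. No replicate pair agreed within sampling noise by a chi-square comparison of counts. The code was tested on simulated data.

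The members, gene lists and tests were chosen with earlier results of these data known. Values in every library are given for Cdh5, Pecam1, Kdr, Tek, Npr3, Apln, Lyve1, Etv2 and each other member called at 0.5 or more on the log2 scale in either direction. The remaining members are given by range, except Sox18, which is given by mean and SD. Of the ligand, regulator and other endothelial lists, genes called at 1 or more on that scale and with a mean of at least 1 CPM were named, and other genes named were chosen after their values were seen. Alternatives were RLE, upper-quartile or library-size scaling, DESeq2 1.42.0, limma-voom (limma 3.58.1), 2 other filters, a replicate block, a foregut marker covariate, a fold threshold and leaving out each library.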

Additional observations from a re-analysis of the deposited data

Results flagged for a closer look

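Of the libraries, 3 values stood apart from the others of their genotype among 70 sets of 4 values examined (35 members in 2 genotypes), by Dixon's criterion on the gap to the nearest value, which chance passes in about 5% of sets. Cdh5 was at 124.8 CPM in Tbx20EH1Mut replicate 4, where the other mutant libraries lay between 109.5 and 110.9 CPM. Flt4 was at 27.0 CPM in WT replicate 2, where the other WT libraries lay between 15.7 and 17.6 CPM. Etv2 was at 10.1 CPM in Tbx20EH1Mut replicate 3, where the other mutant libraries lay between 5.10 and 5.46 CPM.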

How the results depend on the processing

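The count of members called higher was 19 and ran from 17 with the foregut covariate to 21 over the other processing settings, and from 18 to 20 when each library was left out. Of these 19 members, 15 kept their call in every fit that tested them (14 without Esm1, which 1 setting did not test). All 21 called members kept their sign, while 9 of the 14 not called changed sign in at least 1 setting. The count called lower was 2, and it was 1 with upper-quartile scaling, with no filter on low counts, with the replicate block and with a fold threshold of 0.5 on the log2 scale, 0 with the foregut covariate, and 0 to 3 when each library was left out. For single members under other settings, 557 values kept their side of the threshold, 13 gained a call, 24 lost one and no call turned direction. Of the 14 other endothelial transcription factors, the 6 called higher became 3 with the foregut covariate and with the fold threshold, and 3 to 6 when each library was left out, and the 0 called lower became 1 with the covariate and 0 to 1 when each library was left out. Of the 20 other endothelial genes, 2 were called lower, and with the covariate 5 others were, with 0 genes in common. Over all genes, 2406 higher became 1436 to 3237 and 2618 lower became 1496 to 3349 when each library was left out, with the lowest counts without WT replicate 3 or 4 or Tbx20EH1Mut replicate 4. The cause of these shifts was not tested. Same-numbered libraries of the 2 genotypes deviated together with correlations of -0.39, 0.39, 0.07 and 0.08, so the numbers do not pair them, and the fit with the replicate block called 18 members higher and 1 lower, Emcn and Gpr182 no longer passing (edgeR adjusted p = 0.0556 and 0.0652), and in the other lists Ets1 and Rhoj no longer passed (edgeR adjusted p = 0.0824 and 0.0875). The member levels in WT libraries of Esm1 (at most 7 reads) set the depth limit, and Esm1 was not tested when 10 counts were required in every library.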
